A study of Homo sapiens with 3 samples.

Results

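IGF ligands and IGF binding proteins were measured in U87 glioblastoma cells with a transfected IGF1R that can or cannot enter the nucleus. The 9 genes IGF1, IGF2 and IGFBP1 to IGFBP7 were chosen by name, and every non-control probe whose RefSeq transcript maps to one of them was taken. This gave 12 of the 58201 probes and 9 of the 25006 named genes, on 30 of the 60901 non-control spots of each array. IGF1, IGF2 and IGFBP7 had a pair of probes each, and the single probes of IGFBP2 and IGFBP3 were each printed on 10 spots.

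IGF1 and IGF2 are secreted growth factors that bind IGF1R, a receptor tyrosine kinase, while IGF2R takes up and degrades IGF2. IGFBP1 to IGFBP6 are secreted carriers that bind both ligands with high affinity, hold them away from the receptor and release them when proteases cut the carrier. IGFBP7 shares part of their fold, binds IGFs only weakly and is found in the extracellular matrix, in gliomas above all at the tumor vessels.

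Both clones come from the U-87MG glioblastoma line and were selected with G418. U87WT 5 (U87WT) expresses GFP-IGF1R, which can enter the nucleus. U87Mut 5 (U87Mut) expresses GFP-IGF1R1025x-1100x-1120x, in which lysines were replaced by arginine so that the receptor is not SUMOylated and stays out of the nucleus. In the paper the U87WT receptor entered the nucleus after IGF1, and the inhibitor OSI906 prevented this. The media can therefore not all be read as nuclear against non-nuclear receptor. U87WT RNA was labeled with Cy5 and U87Mut RNA with Cy3, and both were hybridized to the same Agilent array, 1 array for each of 3 media: FBS-free medium for 24 h, IGF1 at 50 nM for 24 h, and IGF1 at 50 nM with the IGF1R and insulin receptor inhibitor OSI906 at 0.5 uM for 24 h; another label of the last sample gives a different dose of OSI906, and the column heads of a supplementary table give a shorter time for the media with IGF1. Each clone is a single selected line that makes its receptor from a plasmid, parental and empty-vector cells are not on the arrays used here, and no condition was repeated. The dyes were not swapped, so that a dye bias of a probe and a difference between the clones cannot be told apart, nor can a treatment and the array that carried it.

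Over all spots the median signal was 33 to 35 for Cy5 and 30.5 to 33.5 for Cy3, against a median local background of 21 or 22, and the scanner software marked 27667 probes as well above background throughout, that is, in Cy5 and Cy3 on all 3 arrays. The IGF1 array carried a bright patch with a local background of up to 66985 in Cy5. No member spot lay in it: local background at the member spots was 20 to 25 on all arrays, and 0 of them were marked as not uniform. Of the glial markers, 4 of 7 had a probe well above background throughout, among them VIM and CD44, while GFAP and SOX2 had 0 such calls. OLIG2, another of the 4, was low, with raw signals of 32 to 36 over a local background of 20 to 22. Probes of PTPRC and CDH5, a leukocyte and an endothelial marker, were also well above background throughout, although 3 other PTPRC probes were at background on every array. The signals of the probes that were called were low, with raw values of 30 to 50 over a local background of 19.5 to 25. PECAM1, the other endothelial marker listed, had 1 of 6 such calls at 1 probe and 0 at its other probes. VIM, which encodes vimentin, had log2 ratios between the clones (U87WT over U87Mut) of 1.15, 0.29 and 0.77 in FBS-free medium, with IGF1 and with IGF1 and OSI906, and its part in the results below was not tested.

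Promoter sequence is shown for the 3 binding proteins measured well above background for which RefSeq gives one, so that their upstream regions can be read beside their values. Each line holds the 250 bases before the start of the gene in GRCh38.p14, 5' to 3' on the strand of the gene. Capitals mark TATAAA, the core of the TATA box, or GTAAACA, the letters bound by forkhead factors, both searched on either strand with no overlap between them. The windows are chr7:45921273-45921522 on the minus strand for IGFBP3, chr17:40443200-40443449 on the plus strand for IGFBP4 and chr12:53097417-53097666 on the plus strand for IGFBP6.
IGFBP3: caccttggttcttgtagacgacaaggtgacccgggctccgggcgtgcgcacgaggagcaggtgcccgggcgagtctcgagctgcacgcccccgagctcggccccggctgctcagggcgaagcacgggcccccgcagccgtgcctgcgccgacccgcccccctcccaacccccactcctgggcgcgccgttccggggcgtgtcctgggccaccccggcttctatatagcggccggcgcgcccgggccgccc
IGFBP4: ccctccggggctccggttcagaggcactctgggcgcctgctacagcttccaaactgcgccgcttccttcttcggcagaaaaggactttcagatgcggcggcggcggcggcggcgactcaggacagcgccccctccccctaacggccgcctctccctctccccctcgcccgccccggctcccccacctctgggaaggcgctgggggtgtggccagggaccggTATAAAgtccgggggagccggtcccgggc
IGFBP6: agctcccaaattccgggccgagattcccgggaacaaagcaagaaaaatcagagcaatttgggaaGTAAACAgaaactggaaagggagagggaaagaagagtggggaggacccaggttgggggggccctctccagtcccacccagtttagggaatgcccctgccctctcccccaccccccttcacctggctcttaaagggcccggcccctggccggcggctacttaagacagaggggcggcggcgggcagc
TATAAA was found at -29 in the IGFBP4 window and GTAAACA at -186 in the IGFBP6 window, and the IGFBP3 window held neither of these strings of letters. Of all 35116 promoter windows of this length, 10.7% held TATAAA and 2.98% held GTAAACA on either strand. The IGFBP3 window held 32 CG dinucleotides, that of IGFBP4 held 24 and that of IGFBP6 held 9, against a median of 11 over all windows. Entries were matched for 6 of the 9 genes; IGF2, IGFBP1 and IGFBP7 had none. These matches describe letters in a window and say nothing of binding in these cells.

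IGFBP7 was the member that separated the clones. The gene lies at chr4:57030773-57110385 (GRCh38.p14). In normalized log2 brightness its first probe stood at 12.61, 12.32 and 12.42 in U87WT and at 11.92, 11.34 and 11.72 in U87Mut in FBS-free medium, with IGF1 and with IGF1 and OSI906. The lowest U87WT level was thus above the highest U87Mut level. Its log2 ratios (U87WT over U87Mut) were 0.68, 0.98 and 0.70 in the same order.

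The second IGFBP7 probe, which reads the same gene, stood at 12.30, 12.00 and 12.00 in U87WT and at 11.76, 11.21 and 11.51 in U87Mut, and its log2 ratios were 0.54, 0.79 and 0.49. Both probes ordered the arrays with IGF1 highest. Before any normalization the first probe read 7079, 6092 and 5439 for U87WT and 4288, 1907 and 2878 for U87Mut, against a local background of 21 to 23. Raw Cy3 was lowest on the IGF1 array for other bright probes too, such as the brightest probe of GRB10 at 11609, 7867 and 9032. Raw values are therefore not read as a response to IGF1. No member spot was saturated.

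Over the 3 arrays, IGFBP7 was higher in U87WT by a mean log2 ratio of 0.79 ± 0.07 (SE, 3 arrays) at the first probe, a fold of 1.73 with a 95% interval of 1.51 to 1.97, with an adjusted p of 0.00907 in limma. At the second probe the mean log2 ratio was 0.61 ± 0.07 (SE, 3 arrays), a fold of 1.52, with an adjusted p of 0.0143 in limma. Among the 27667 probes well above background throughout, the first probe ranked 330th from the highest mean ratio and the second 724th. The sign held on every array and under every way of processing that was tried, while both calls were lost without the array of IGF1 and OSI906, with adjusted p of 0.0732 and 0.0811, and that of the second probe also without the FBS-free array, with 0.0722 (limma, Benjamini-Hochberg). Both were lost as well with an offset of 0 (0.0838 and 0.126), with the scanner log ratio (0.109 and 0.147) and with the median in place of loess (0.353 and 0.438). Each SE and 95% interval here and below is the moderated one of limma, in which the variance of a probe is drawn toward that of all probes. It is therefore not the plain SE of the 3 ratios. The 3 arrays are different media, with 1 sample of each clone in each medium. This SE therefore holds the response to the media together with noise, and the spread between repeated cultures was not measured. In RNA of whole cultures, fewer cells that express a gene and less RNA per cell cannot be told apart.

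IGFBP4, which carries IGFs and is cut by the protease PAPPA, was the only other member called, and in the opposite direction. It lies at chr17:40443450-40457725, just after the window with TATAAA printed above. Its levels were low: the raw signals were 35, 49.5 and 39 in Cy5 (U87WT) and 45, 52.5 and 57 in Cy3 (U87Mut) over a local background of 21 to 24. In normalized log2 brightness U87WT stood at 6.12, 6.32 and 6.14 and U87Mut at 6.31, 6.54 and 6.50. U87Mut was the higher clone on each array, with log2 ratios of -0.19, -0.22 and -0.36, although the highest U87WT level reached the lowest U87Mut level.

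The mean log2 ratio of IGFBP4 was -0.26 ± 0.05 (SE, 3 arrays), with an adjusted p of 0.0463 in limma. As a fold, U87Mut was 1.20 times U87WT, with a 95% interval of 1.10 to 1.30. This call was the weakest of the 3: it was lost when any 1 array was left out, with adjusted p of 0.130 without FBS-free medium, 0.0604 without IGF1 and 0.167 without IGF1 and OSI906 (limma). It was also lost with all spots in the background fit (adjusted p of 0.406, with -0.03 in place of -0.22 on the IGF1 array), in the deposited table (0.346), with the scanner log ratio (0.113) and with the median in place of loess (0.397). The offset of 50 added in the background correction draws ratios of dim probes toward 0, and without it the mean was -0.70 with an adjusted p of 0.132 in limma.

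IGFBP1 encodes a secreted carrier whose transcription is repressed by insulin, and it was at the edge of detection. Its probe was never well above background in U87WT, with raw Cy5 signals of 22, 24 and 23 over a background of 21 or 22. In U87Mut it was well above background in 2 of 3 media, with raw Cy3 signals of 33.5 in FBS-free medium and 39 with IGF1 and OSI906, and 27.5 with IGF1 alone. The log2 ratios were -0.26, -0.13 and -0.41; on the IGF1 array both clones were at background, and no direction or order is read from that array.

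Because the U87WT side was at background, the size of a difference in IGFBP1 is not known. Its normalized means over all 3 arrays were 6.11 in U87Mut and 5.84 in U87WT. Their ratio was 1.20, with a 95% interval of 1.07 to 1.35, and it includes the IGF1 array, where both clones were at background. No lower bound could be set, since the U87WT signal lay above the lowest signal among probes well above background on each array. The ratio depends on the processing. The mean log2 ratio was -0.27, against -0.22 with all spots in the background fit and -0.19 without the array of IGF1 and OSI906. It was larger in size in the deposited table (-0.41), with an offset of 20 (-0.51) and without background correction (-0.53). With an offset of 0 it was -1.35, and with the scanner log ratio it was -3.18. The offset of the main processing narrows ratios of dim probes, so that the fold of 1.20 and its interval hold for that setting only. IGFBP1 did not pass the test over the 3 arrays, with an adjusted p of 0.0885 in limma. The adjusted p was 0.0325 without the IGF1 array, 0.0230 with an offset of 20 and 0.0380 without background correction, but 0.277 without the FBS-free array, 0.263 without that of IGF1 and OSI906, 0.412 with all spots in the background fit and 0.336 in the deposited table (limma). IGFBP1 and IGFBP3 are neighbors on chromosome 7, at chr7:45888488-45893660 and chr7:45912245-45921272.

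IGFBP3 encodes the main IGF carrier of serum and was measured on 10 spots per array. In normalized log2 brightness it stood at 9.81, 9.57 and 9.76 in U87WT and at 9.90, 9.78 and 9.63 in U87Mut. The clones therefore changed places: U87Mut was higher in FBS-free medium and with IGF1, and U87WT was higher with IGF1 and OSI906. The log2 ratios were -0.10, -0.20 and 0.13.

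The spots show how far 1 array can settle such a value. The 10 spots ran from -0.16 to 0.00 with a median of -0.10 in FBS-free medium, from -0.27 to -0.14 with a median of -0.21 with IGF1, and from 0.01 to 0.21 with a median of 0.14 with IGF1 and OSI906. Spots of the IGF1 array and spots of the array with OSI906 did not overlap. Spots of 1 array share the same labeled RNA, so that their spread, an SD of 0.05 to 0.06, is technical and does not stand for replicates.

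Over the 3 arrays the mean log2 ratio of IGFBP3 was -0.06 ± 0.07 (SE, 3 arrays), with a 95% interval of -0.25 to 0.13 and an adjusted p of 0.737 in limma. The sign on the IGF1 array was opposite, at 0.20, when arrays were centered on the median in place of loess. On that array the raw Cy5 signal of 852 exceeded the raw Cy3 signal of 674, as it also did for other bright probes such as that of IGFBP6. The direction there thus depended on how the dyes were balanced within the array. The ratio stayed negative without background correction (-0.23), with the scanner log ratio (-0.28) and in the deposited table (-0.58).

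**Figure D1:**
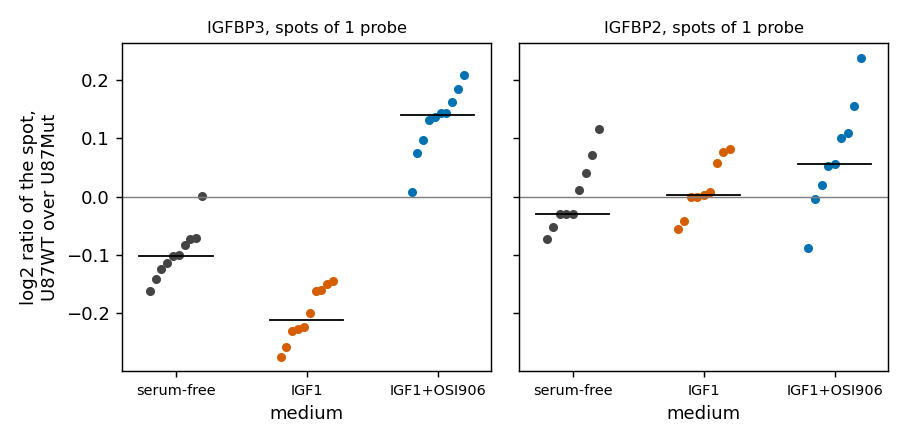
Log2 ratio of U87WT over U87Mut (vertical axis) of the single spots of the IGFBP3 probe (left) and the IGFBP2 probe (right) on the arrays of the 3 media (horizontal axis); points are spots in order of value, and bars are their medians. IGFBP3 spots with IGF1 lie between -0.27 and -0.14 and those with IGF1 and OSI906 between 0.01 and 0.21, while IGFBP2 spots of all arrays overlap around 0.

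IGFBP6 prefers IGF2 as its ligand and was well measured in both clones. Its raw signals were 12891, 10750 and 10569 for U87WT and 11982.5, 5986 and 8116 for U87Mut. After normalization U87WT stood at 13.44, 13.07 and 13.31 and U87Mut at 13.44, 13.00 and 13.24. The clones were within 0.08 of each other on every array.

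The mean log2 ratio of IGFBP6 was 0.05 ± 0.04 (SE, 3 arrays), with a 95% interval of -0.04 to 0.15 and an adjusted p of 0.510 in limma. For this bright probe too the IGF1 array depended on the normalization within arrays: with the median in place of loess its log2 ratio was 0.71.

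IGFBP2, which gliomas are known to express, was close to background here. Of its 10 spots, 1 was an outlier on each array and was left out. Raw Cy5 signals of the others were 28 to 37.5 and raw Cy3 signals 27.5 to 34, against a local background of 21 or 22. Well above background were 8, 9 and 10 of the 10 spots for U87WT and 8, 4 and 7 for U87Mut, in the order of media above. The mean log2 ratio was 0.03 ± 0.04 (SE, 3 arrays), with an adjusted p of 0.726 in limma.

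IGFBP5, which binds matrix as well as IGFs and is the neighbor of IGFBP2 on chromosome 2, was not well above background in either clone on any array. Its raw signals were 21.5 to 22 in Cy5 and 21 to 25 in Cy3. No difference was detectable at this signal.

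The ligands gave little signal. The first IGF1 probe was well above background throughout but only just, with raw signals of 33, 34 and 38 in Cy5 and 35, 27 and 35 in Cy3 over a background of 21 to 25. Its log2 ratios were -0.01, 0.20 and 0.11, with a mean of 0.10 ± 0.05 (SE, 3 arrays) and an adjusted p of 0.389 in limma. The second IGF1 probe had raw signals of 22 to 28 and was not well above background in either channel of any array, and its ratios were -0.02 to 0.04. The 2 probes of IGF1 therefore disagree on whether the gene is detected. By PCR, the paper could not detect IGF1 RNA in its cell lines and found IGF2 RNA at a very low level.

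IGF2 was no clearer. Its first probe had raw signals of 27 to 31 in Cy5 and 28.5 to 31 in Cy3, was well above background in U87WT on 2 arrays and in U87Mut on none, and had ratios of -0.07, 0.04 and -0.05. The second probe was at background throughout, with ratios of 0.02 to 0.04. The IGF1 added to the medium as protein adds no RNA and would not be read by these probes.

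Taking all members, 2 of the 12 probes were called higher in U87WT and 1 lower by limma, and 4 had an unadjusted p under 0.05. Over all 58201 probes, 8.43% were called, 4.28% higher and 4.15% lower, and among the 27667 probes well above background throughout 17.2% were called. By gene, 1 of 9 members, IGFBP7, had a log2 ratio past 0.5 in size on each array, against 7.85% of all named genes in FBS-free medium, 7.7% with IGF1 and 7.08% with IGF1 and OSI906. The count past 0.5 is near the share over all genes. Of the limma calls, 3 of 12 member probes is above the share over all probes and 3 of the 6 well above background throughout is above the share among such probes, but 2 of the 3 read the same gene, so that the calls concern IGFBP7 and IGFBP4 and not the family. The median member ratio was -0.01, 0.01 and 0.07, against 0.00, 0.01 and 0.00 over all named genes. Of the 9 genes, 5 had a probe well above background throughout: IGF1, IGFBP3, IGFBP4, IGFBP6 and IGFBP7.

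**Figure D2:**
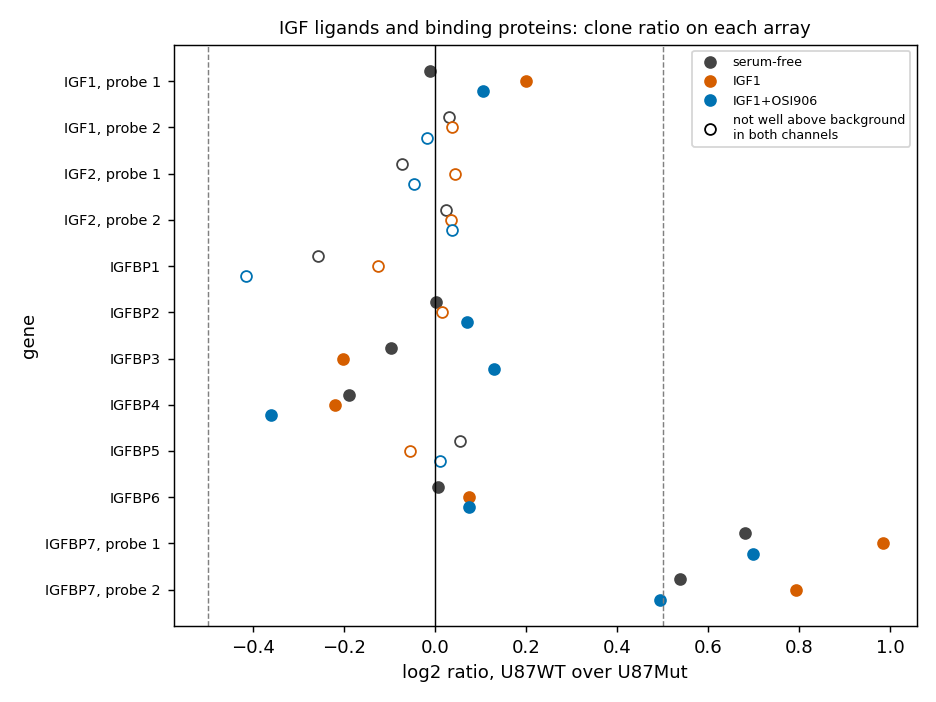
Log2 ratio of U87WT over U87Mut (horizontal axis) of each of the 12 member probes (vertical axis) on the 3 arrays; open points were at background for at least 1 dye, and dashed lines mark -0.5 and 0.5. Both IGFBP7 probes lie to the right, at 0.49 to 0.98, IGFBP4 lies to the left of 0 on each array, and IGFBP3 lies on both sides. IGFBP1 points lie to the left as well, but no direction is read from its IGF1 array, where both clones were at background.

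The levels of each clone were also set side by side between media, which rests on the normalization between arrays and on 1 array per medium, with no test. IGFBP7 in U87Mut was lower with IGF1 than in FBS-free medium by 0.59 on the log2 scale at the first probe (difference of -0.59) and by 0.55 at the second (difference of -0.55). The same differences in U87WT were -0.29 and -0.30. With OSI906 added to IGF1, the first probe was 0.38 higher in U87Mut and 0.10 higher in U87WT than with IGF1 alone. The second probe was 0.30 higher in U87Mut and differed by 0.00 in U87WT. U87Mut thus had its lowest IGFBP7 level with IGF1 and an intermediate level with OSI906 at both probes, while in U87WT the media with IGF1 were close to each other.

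IGFBP6 had the same order of media in both clones, lowest with IGF1. Its level with IGF1 differed from that in FBS-free medium by -0.37 in U87WT and -0.44 in U87Mut, and its level with OSI906 exceeded that with IGF1 by 0.24 in each clone. IGFBP4 went the other way, with 0.20 in U87WT and 0.23 in U87Mut for IGF1 against FBS-free medium. IGFBP3 was lower with IGF1 than without by -0.23 in U87WT and -0.13 in U87Mut; adding OSI906 gave 0.19 in U87WT and -0.15 in U87Mut.

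Among the members, the lower IGFBP7 level in U87Mut was the single difference past 0.5 in size between IGF1 and FBS-free medium, and none was past it between IGF1 with and without OSI906. Over all named genes, 3.27% in U87WT and 1.6% in U87Mut were past 0.5 for IGF1 against FBS-free medium, and 4.78% and 1.92% for OSI906. The interquartile range of the probes well above background was -0.11 to 0.13 in U87WT and from -0.12 to 0.09 in U87Mut for IGF1 against FBS-free medium.

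**Figure D3:**
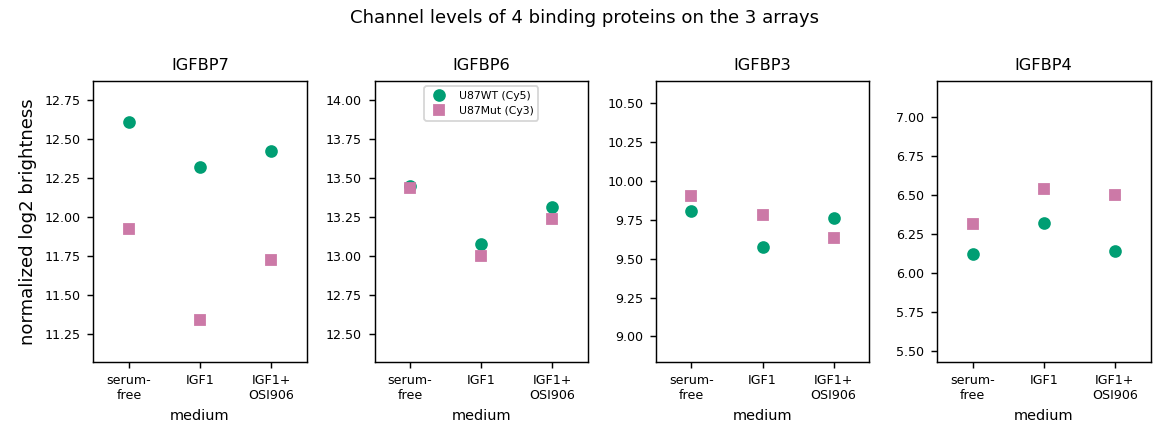
Normalized log2 brightness (vertical axis, a span of the same height in each panel) of IGFBP7, IGFBP6, IGFBP3 and IGFBP4 in U87WT (circles, Cy5) and U87Mut (squares, Cy3) in the 3 media (horizontal axis), 1 array each, brightest probe. The clones are apart for IGFBP7 in each medium, within 0.08 for IGFBP6, exchange places for IGFBP3, and U87Mut lies above U87WT for IGFBP4; heights are not comparable between panels, since probes differ in brightness.

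The genes whose pattern over the 6 channel values was most like that of IGFBP7, each probe centered on its own mean, were KDELR3, COL12A1 and PAPLN, at Euclidean distances of 0.107, 0.111 and 0.143 among 15340 genes. KDELR3 encodes a receptor that returns proteins to the endoplasmic reticulum, COL12A1 a collagen chain and PAPLN a glycoprotein of the matrix. Their log2 ratios were 0.77, 1.01 and 0.67 for KDELR3, 0.78, 1.06 and 0.72 for COL12A1, and 0.81, 0.90 and 0.68 for PAPLN in the same order of media. This likeness is a description over 3 arrays and says nothing of shared control.

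The receptors that read the ligands differed little between the clones. IGF1R, the gene of the receptor that both clones also carry as a transgene, had log2 ratios of 0.07, 0.23 and 0.09 and an adjusted p of 0.207 in limma; which part of the transcript its probe reads was not analysed here, so that it may not report the transgene. INSR, the insulin receptor, had ratios of 0.06, 0.33 and -0.04. IGF2R had ratios of -0.17, 0.29 and -0.15.

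Of 22 genes of the IGF pathway, 17 had a brightest probe well above background throughout, and by the brightest probe limma called 2 higher and 1 lower in U87WT. These 3 of 17 lie near the 17.2% called among all probes well above background throughout, so that the count is no result about the pathway. PAPPA, the metalloprotease that cuts IGFBP4, had log2 ratios of 0.74, 0.80 and 0.53. Its mean was 0.69 ± 0.06 (SE, 3 arrays), a fold of 1.61, with an adjusted p of 0.00908 in limma. On each array PAPPA RNA was higher, and the dim IGFBP4 RNA lower, in U87WT than in U87Mut. With all spots in the background fit the IGFBP4 ratio on the IGF1 array was -0.03. These are RNA values, cutting by PAPPA acts on the IGFBP4 protein, and a link between the 2 genes was not tested.

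STC2, which encodes a secreted inhibitor of PAPPA, was lower in U87WT, with ratios of -0.31, -0.26 and -0.24, a mean of -0.27 ± 0.04 (SE, 3 arrays) and an adjusted p of 0.0200 in limma. PAPPA2, a related protease, did not pass, with ratios of -0.53, -0.48 and -0.11 and an adjusted p of 0.0993 in limma. HTRA1, a serine protease that cuts several IGFBPs, was past 0.5 in FBS-free medium alone, with 0.64, 0.15 and 0.20. A less bright GRB10 probe was called lower in U87WT, with -0.18, -0.49 and -0.39 and an adjusted p of 0.0497 in limma. The brightest GRB10 probe was not called, with an adjusted p of 0.392 in limma. A less bright IGF2BP2 probe had 0.51, -0.07 and 0.72 and was not called, with an adjusted p of 0.272 in limma.

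SHC1, an adaptor of IGF1R, was called higher by its brightest probe, with ratios of 0.46, 0.61 and 0.35 and an adjusted p of 0.0172 in limma. Its second probe, also well above background, gave -0.11, 0.06 and -0.04, so that the probes of this gene disagree. None of the 3 calls remained without the FBS-free array or without that of IGF1 and OSI906; without the FBS-free array the adjusted p was 0.0633 for PAPPA, 0.116 for STC2 and 0.0950 for SHC1, and without that of IGF1 and OSI906 it was 0.0515, 0.111 and 0.0720 (limma).

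Between media, STC2 had the lowest level with IGF1 and the highest with OSI906 in both clones: it stood at 7.74, 6.97 and 8.63 in U87WT and at 8.04, 7.23 and 8.87 in U87Mut. IRS1, the docking protein of the receptor, stood at 8.37, 7.75 and 8.45 in U87WT and at 8.15, 7.50 and 8.50 in U87Mut. The differences of STC2 and of this IRS1 probe between the IGF1 array and each other array were larger than those of any member.

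**Figure D4:**
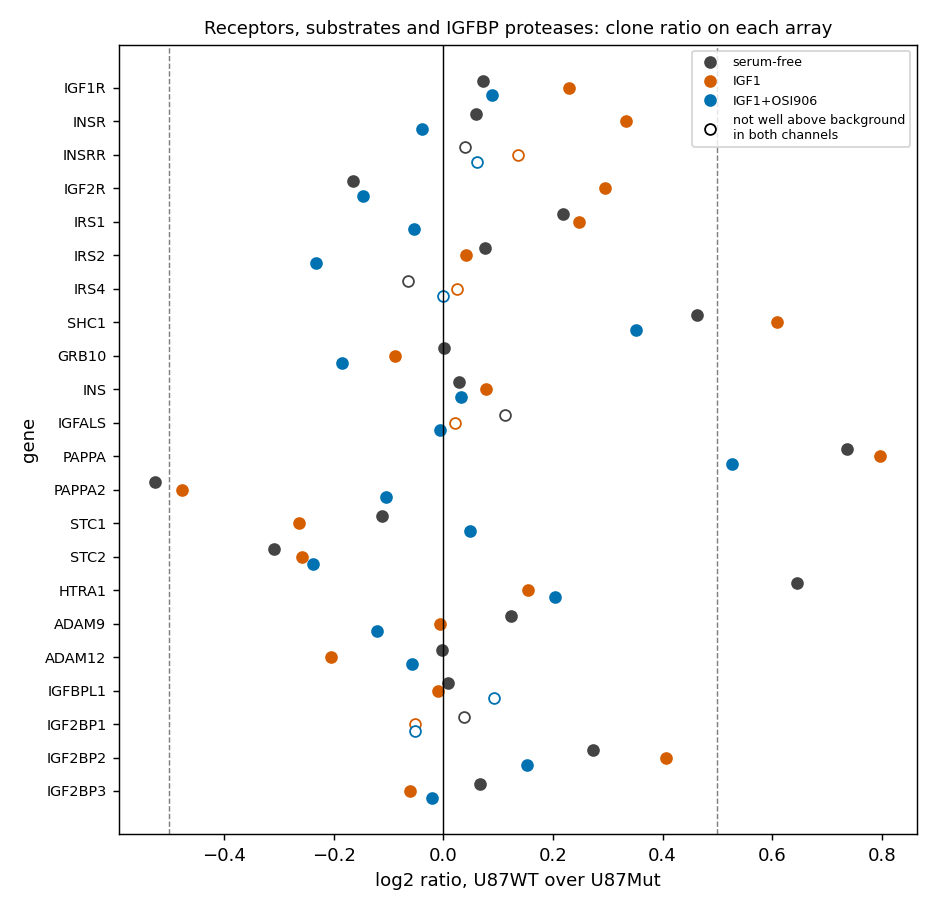
Log2 ratio of U87WT over U87Mut (horizontal axis) of the brightest probe of each of 22 genes of the IGF pathway (vertical axis) on the 3 arrays; open points were at background for at least 1 dye, and dashed lines mark -0.5 and 0.5. PAPPA lies at 0.53 to 0.80 and STC2 at -0.31 to -0.24, while IGF1R, INSR and IGF2R lie between -0.17 and 0.33.

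**Figure D5:**
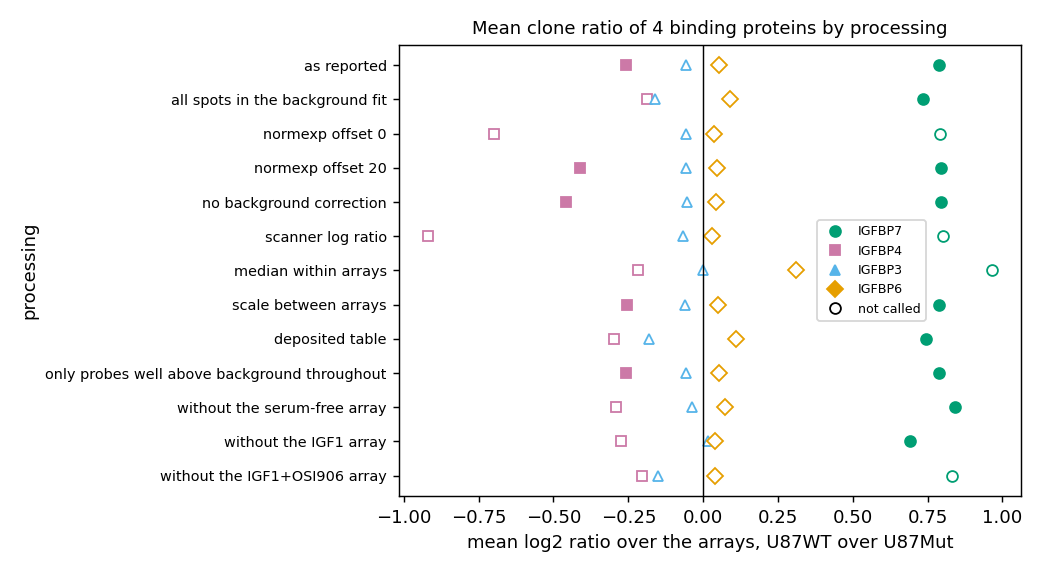
Mean log2 ratio of U87WT over U87Mut (horizontal axis) of IGFBP7, IGFBP4, IGFBP3 and IGFBP6, brightest probe, under each way of processing (vertical axis); filled points were called by limma at an adjusted p of 0.05 and open points were not. IGFBP7 stays between 0.69 and 0.97 and IGFBP4 below 0 throughout, while IGFBP3 lies on both sides of 0.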

How the data were processed

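U87WT 5 and U87Mut 5 RNA was compared on 3 two-color Agilent arrays, 1 per medium. Intensity values are deposited as Feature Extraction 12.0.3.1 wrote them, per the file headers: the median signal of each spot and its local background, not normalized. The deposited log10 ratios come from the same software and were converted to log2. The authors deposited a table of log2 ratios as well, which their methods describe as background-corrected and normalized with limma; both served as alternatives.

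Values were computed with limma 3.58.1 and version 1.17.8 of data.table under R 4.3.3. Background correction used normexp (offset 50) fitted without spots marked as not uniform, control spots were removed, arrays were normalized by loess within and Aquantile between, spots marked as outliers were left out, and spots of a probe were averaged. Scanner files give accessions; 34892 of 58201 probes were named through RefSeq (GRCh38.p14). For a probe with several spots, well above background means more than 0.5 of them as a share, with outlier spots left out. For each probe, limma (lmFit with an intercept, then eBayes) tested whether the log2 ratios of the 3 arrays average 0; p-values were adjusted over all probes after Benjamini and Hochberg, and 0.05 was the limit; values of single arrays carry no test. The SD of a single ratio, from the FBS-free array minus that with OSI906, was 0.14 and holds response as well as noise. The background fit without marked spots and the limma test were tried on simulated data, while the normalization within and between arrays was not.

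All member probes are named; 1 value per gene is that of its brightest probe. Pathway genes are named when called or past 0.5 on an array, and IGF1R, INSR and IGF2R always; the likeness list is the 3 nearest genes to the leading member. The members and lists were chosen with earlier results of these data known. Alternatives were other background fits and offsets, no background correction, the scanner log ratio, median within arrays, scale, quantile or no normalization between arrays, the deposited table, only bright probes, a gene's probes averaged, and 1 array left out at a time. With 1 array per medium, their number limits the precision.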

Additional observations from a re-analysis of the deposited data

Results flagged for a closer look

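In 2 cases the level of a member well above background throughout differed between the same arrays with opposite signs in the clones. These differences were not tested, since each medium has 1 array. For the first IGF1 probe the difference between IGF1 and FBS-free medium was 0.01 in U87WT, and its sign is not read. The difference was -0.21 in U87Mut, a gap of 0.21 on the log2 scale. The SD of a single ratio, 0.14, is of ratios between the dyes and does not measure the spread of such differences. The signal of this probe was close to background, and the second probe was at background with -0.02 and -0.03. On the IGF1 array the ratio of the first probe was 0.20, but 0.02 with all spots in the background fit and 0.01 in the deposited table. IGFBP3 differed by 0.19 in U87WT and by -0.15 in U87Mut between IGF1 with and without OSI906, a gap of 0.33, with 10 spots per array.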

How the results depend on the processing

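Of the 12 member probes, 3 were called, and the count was 0 with an offset of 0, 0 with the scanner log ratio and 0 with the median within arrays; with the latter 2 limma called 0 probes of the whole series, and 4 member probes had an unadjusted p under 0.05 with each of these 3. It was 2, without IGFBP4, with all spots in the background fit and in the deposited table. Leaving out 1 array at a time gave 0 to 3 called member probes. Genes past 0.5 were 1 on each array; in FBS-free medium they were 3 with an offset of 0, 2 without background correction, 3 with the scanner log ratio and 0 with the median within arrays. With IGF1 they were 2 with all spots in the background fit, 5 with an offset of 0, 4 with the scanner log ratio, 2 with the median within arrays and 2 in the deposited table, where IGFBP3 was at -0.58. With IGF1 and OSI906 they were 3 with an offset of 0, 3 with an offset of 20, 3 without background correction, 4 with the scanner log ratio and 3 in the deposited table, where IGFBP1 and IGFBP4 joined. A smaller offset widens the ratios of dim probes by construction. Between IGF1 and FBS-free medium, members past 0.5 were 0 in U87WT, with 2 without normalization between arrays and 1 with an offset of 0, and 1 in U87Mut, with 2 and 4; for OSI906 an offset of 0 gave 3 in each clone against 0. Of the pathway genes 3 were called, against 1 with all spots in the background fit, where PAPPA had an adjusted p of 0.0503 and STC2 of 0.262, 2 in the deposited table, where STC2 had 0.248, and 0 to 3 on leaving out 1 array; with an offset of 0 none of PAPPA (0.0978), SHC1 (0.170) and STC2 (0.230) passed in limma, nor with the scanner log ratio or the median within arrays. Over all probes, limma called 4907, 675 with all spots in the fit, 452 with an offset of 0, 785 in the deposited table, and 1159, 6033 and 232 without the FBS-free, the IGF1 and the OSI906 array. No paired analysis was possible between media because each medium has 1 sample of each clone; the clones are paired on each array by the ratio itself.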
